A study of Mus musculus with 20 samples.

Results

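DNA replication and S phase genes were followed in mouse pancreas around birth. The set was a list of 41 genes chosen by symbol, and each gene was read from the probe set that names it alone and has the highest mean, provided that this probe set lay above the array median on 4 or more arrays. Of the 41 genes, 40 had a probe set of their own and 38 passed the signal rule, out of 30063 named genes and 17993 genes tested. They comprised 13 genes of origin licensing and the helicase, 13 of the polymerases, the sliding clamp and strand joining, 5 of nucleotide synthesis, and 7 of chromatin copying and S phase entry. Mcm7 shared its probe set with 2 microRNAs and has no value here. At the edge of the rule, Mcm10 lay above the median on 4 arrays, Cdc6 on 11 and E2f1 on 13, while Cdt1 did so on 3 arrays and Fen1 on 0 and neither was tested. The other 35 genes lay above the median on all 20 arrays.

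The study asked what loss of inceptor does to the perinatal pancreas. Inceptor is the membrane protein encoded by Elapor1, which the labels call Iir, and it lowers signalling through the insulin receptor. The groups, all of strain C57BL/6J and of undetermined sex, were inceptor-deficient (Iir-/-) pancreas on the day of birth (P0, 6 arrays), control (Iir+/+) pancreas at P0 (5 arrays), Iir-/- pancreas at embryonic day 18.5 (E18.5, 5 arrays) and Iir+/+ pancreas at E18.5 (4 arrays). Pups were starved for 5 h at P0, whereas at E18.5 the mother was starved for 2 h, so age and starvation scheme cannot be told apart. All P0 arrays also have lower running sample numbers than all E18.5 arrays. The labels name the genotype but not the cells in which the deletion acted, the litters, or whether arrays came from separate animals. All p-values therefore describe only the variation among these samples, which may be partly technical.

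Before a cell copies its DNA, the origin recognition complex with Cdc6 and Cdt1 loads the ring of Mcm proteins onto origins, and Cdc45 and the GINS complex then turn the ring into the working helicase. Polymerase alpha with primase starts each strand, the clamp Pcna and its loader, the Rfc proteins, hold polymerases delta and epsilon on the template, and thymidylate synthase, thymidine kinase and ribonucleotide reductase supply the building blocks. Many of these genes are switched on together by E2F factors as cells pass from G1 into S phase, and around birth acinar, islet, duct and mesenchymal cells of the pancreas all still divide.

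Where these promoters hold an E2F-type element, it can be read in the sequence. RefSeq windows (build GRCm38.p6, 250 bases before to 50 bases after the annotated start) were at hand for 35 of the 41 genes, with none for Mcm4, Gins1, Gins2, Rfc2, Pole and Ccne2. They were searched on both strands for TTTCCCGC, TTTGGCGC, TTTGCCGC and TTTCGCGC, and at least 1 of these stood in 14 of 35 replication gene windows, against 2.6% of 27025 genes and 2.26% of 32851 windows. Of the helicase group 8 of 12 windows held a match (Mcm3, Mcm5, Mcm6, Mcm7, Cdc6, Cdt1, Gins3 and Orc1), of the polymerase group 5 of 12 (Rfc3, Pola1, Pold1, Pole2 and Lig1), of chromatin copying and S phase entry 1 of 6 (Uhrf1) and of nucleotide synthesis 0 of 5. Windows of 4 genes whose signals are described below are shown 5′ to 3′ along the gene, with E2F-type matches in capitals: Mcm3 (chr1:20820263-20820562, minus strand), Mcm6 (chr1:128359656-128359955, minus strand), Pola1 (chrX:93632106-93632405, minus strand) and, as an example without a match, Rrm2 (chr12:24708004-24708303, plus strand).
Mcm3: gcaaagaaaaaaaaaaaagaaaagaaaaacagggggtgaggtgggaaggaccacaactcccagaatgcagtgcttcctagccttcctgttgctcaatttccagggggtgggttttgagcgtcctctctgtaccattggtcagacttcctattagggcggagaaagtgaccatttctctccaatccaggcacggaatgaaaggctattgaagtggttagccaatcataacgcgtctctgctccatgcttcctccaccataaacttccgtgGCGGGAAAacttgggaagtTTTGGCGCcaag
Mcm6: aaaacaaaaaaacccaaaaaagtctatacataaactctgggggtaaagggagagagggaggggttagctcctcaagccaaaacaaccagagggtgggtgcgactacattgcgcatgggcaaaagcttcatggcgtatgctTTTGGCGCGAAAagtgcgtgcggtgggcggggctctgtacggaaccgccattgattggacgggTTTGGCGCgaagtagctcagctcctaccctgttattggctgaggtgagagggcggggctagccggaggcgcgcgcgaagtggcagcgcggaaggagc
Pola1: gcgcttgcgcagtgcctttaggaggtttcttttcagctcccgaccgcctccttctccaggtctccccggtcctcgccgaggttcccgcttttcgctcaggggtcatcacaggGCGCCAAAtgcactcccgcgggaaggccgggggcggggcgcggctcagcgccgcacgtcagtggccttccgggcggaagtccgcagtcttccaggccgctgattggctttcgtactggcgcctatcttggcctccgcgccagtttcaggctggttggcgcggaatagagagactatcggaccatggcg
Rrm2: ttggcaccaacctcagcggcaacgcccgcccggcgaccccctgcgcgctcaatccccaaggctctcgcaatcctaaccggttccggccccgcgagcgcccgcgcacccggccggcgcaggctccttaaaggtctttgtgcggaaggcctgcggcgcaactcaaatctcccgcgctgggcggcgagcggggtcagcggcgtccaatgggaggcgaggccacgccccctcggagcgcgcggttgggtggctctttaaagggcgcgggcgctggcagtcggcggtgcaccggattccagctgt
Mcm3 carried TTTCCCGC on the opposite strand from transcribed base 20 and TTTGGCGC from transcribed base 39. Mcm6 carried TTTGGCGC at 110 and at 47 bases upstream, the first overlapping a TTTCGCGC on the opposite strand at 106 bases, and Pola1 carried TTTGGCGC on the opposite strand at 138 bases upstream. Matches on opposite strands also overlapped in Mcm5 (153 and 149 bases upstream), while the 2 matches of Rfc3 (10 bases upstream and transcribed base 1) did not. Of other short elements, CCAAT stood in 57.1% of the replication gene windows and 41.1% of all genes, the mitotic element TTTGAA in 11.4% and 20.2%, and the GC box GGGCGG in 77.1% and 38.2%. A match describes these letters only and does not show that a factor binds there.

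The signals are log2 values from Affymetrix transcript arrays, normalised together by the robust multi-array average (RMA), and a difference of 1 is a 2-fold change. The targeted gene followed the labels: Elapor1 lay between 5.58 and 6.38 in Iir-/- arrays at P0 and between 5.79 and 6.50 at E18.5, against 11.07 to 12.01 in Iir+/+ arrays at P0 and 11.67 to 12.06 at E18.5. There were 4 arrays with a mean above 7 for intestinal or skeletal muscle markers, namely Iir-/- replicate 4 at P0, Iir-/- replicates 1 and 2 at E18.5 and Iir+/+ replicate 4 at E18.5, and counts are also given without them. The mean of 9 liver markers ran from 7.59 to 13.64 over the 20 arrays. Genes were called at an adjusted p under 0.05 in a limma fit over all 17993 genes. Levels of different genes are not compared, because each probe set has its own scale.

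The clearest difference in replication genes lay between the ages in Iir-/- pancreas. Of the 38 genes, 25 fell in P0 Iir-/- pancreas relative to E18.5 Iir-/- pancreas and 0 rose, where 11.7% of all genes tested fell and 11.3% rose. The median difference of the replication genes was -0.35, against 0.00 for all genes (-0.00367), and among the 35 genes above the median on every array 22 fell. Thymidylate synthase, Mcm3 and Mcm6 of the helicase ring, the clamp Pcna, polymerase epsilon's second subunit and the small subunit of ribonucleotide reductase showed the largest falls. In bulk tissue, fewer dividing cells and less of these RNAs per cell cannot be told apart.

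**Figure D1:**
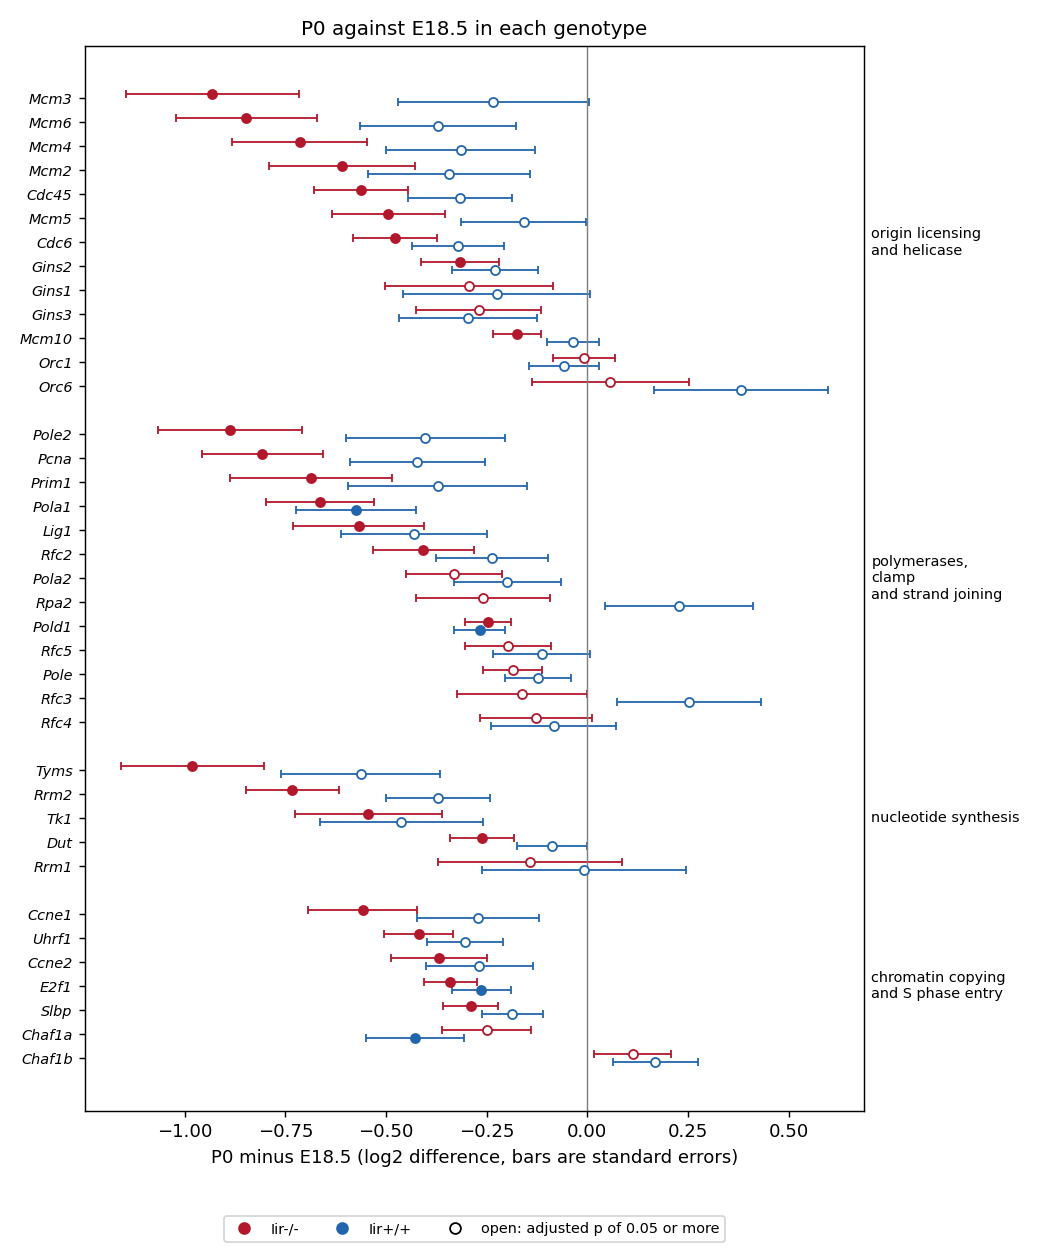
Log2 difference between P0 and E18.5 for the 38 replication genes in Iir-/- pancreas (red) and Iir+/+ pancreas (blue), ordered within each role, with standard errors from limma; filled points passed an adjusted p of 0.05. The red points of Tyms, Mcm3, Pole2, Mcm6 and Pcna lie furthest to the left, and 36 of the 38 red and 34 of the 38 blue points lie below 0.

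In the helicase group 9 of 13 genes fell in P0 Iir-/- pancreas. Mcm3, a subunit of the ring, had a lowest, median and highest signal of 5.50, 5.78 and 6.28 in P0 Iir-/- arrays, against 6.41, 6.82, 7.0, 6.68 and 6.83 in E18.5 Iir-/- arrays. Every P0 array therefore lay below every E18.5 array, and the difference was -0.93 ± 0.21 (SE, adjusted p = 0.00459). Mcm6, another subunit of the ring, had 8.34, 8.51 and 8.86 (lowest, median and highest) in P0 Iir-/- arrays, against 9.13, 9.70, 9.27, 9.57 and 9.37 in E18.5 Iir-/- arrays. These arrays did not overlap either, at -0.85 ± 0.17 (adjusted p = 0.00214). Mcm4 fell by 0.71, Mcm2 by 0.61 and Mcm5 by 0.49, and in Mcm2 the E18.5 array of replicate 1 (5.68) lay below the highest P0 array (5.77). The loading factor Cdc6 had 4.58, 4.62 and 4.83 (lowest, median and highest) in P0 Iir-/- arrays, against 4.92, 5.40, 5.00, 5.31 and 5.14 in E18.5 Iir-/- arrays. These were separate, and Cdc6 fell by 0.48, although its signal was near the array median. The helicase cofactor Cdc45 fell by 0.56, also without overlap. Gins2 fell by 0.32 and Mcm10, near the array median like Cdc6, by 0.17. Gins1 and Gins3, partners of Gins2 in the GINS complex, had differences of -0.29 ± 0.21 and -0.27 ± 0.15 that did not pass. The origin recognition subunits had differences near 0, with -0.01 ± 0.08 for Orc1 and 0.06 ± 0.20 for Orc6. Orc6 had 8.74, 9.24 and 10.20 (lowest, median and highest) in P0 Iir-/- arrays, against 9.14, 9.53, 9.29, 9.38 and 9.31 in E18.5 Iir-/- arrays, and the P0 arrays were the more widely spread, from below the lowest E18.5 array to above the highest.

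In the polymerase group 7 of 13 genes fell in P0 Iir-/- pancreas. Pcna, the sliding clamp, had 12.43, 12.71 and 13.11 (lowest, median and highest) in P0 Iir-/- arrays, against 13.28, 13.66, 13.46, 13.61 and 13.67 in E18.5 Iir-/- arrays. The groups were separate, and Pcna fell by 0.81 (SE 0.15, adjusted p = 0.00105). Pole2, the second subunit of polymerase epsilon, had 6.10, 6.34 and 7.19 (lowest, median and highest) in P0 Iir-/- arrays, against 6.80, 7.42, 7.49, 7.41 and 7.52 in E18.5 Iir-/- arrays. Replicate 1 at P0 was far above the other P0 arrays and replicate 1 at E18.5 far below its group, so the groups overlapped while the mean fell by 0.89 (SE 0.18, adjusted p = 0.0018). Pola1, the catalytic subunit of polymerase alpha, had 6.29, 6.51 and 6.59 (lowest, median and highest) in P0 Iir-/- arrays, against 6.70, 7.17, 7.28, 7.31 and 7.28 in E18.5 Iir-/- arrays. Pola1 fell by 0.66, the primase subunit Prim1 by 0.69, the DNA ligase of replication, Lig1, by 0.57, and the catalytic subunit of polymerase delta, Pold1, by 0.25, all without overlap. The clamp loader genes varied: Rfc2 fell by 0.41, while Rfc3, Rfc4 and Rfc5 had -0.16, -0.13 and -0.20 and did not pass.

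Of the 5 nucleotide synthesis genes, 4 fell in P0 Iir-/- pancreas. Tyms, thymidylate synthase, had 8.53, 8.76 and 9.32 (lowest, median and highest) in P0 Iir-/- arrays, against 9.58, 10.04, 9.80, 9.81 and 9.79 in E18.5 Iir-/- arrays. This was the largest fall among the 38 genes, -0.98 ± 0.18 (adjusted p = 0.00087), a 1.97-fold difference with no overlap. Of the ribonucleotide reductase genes, Rrm2 (small subunit) fell by 0.73 (SE 0.12, adjusted p = 0.000315) and Rrm1 (large subunit) had -0.14 ± 0.23 (adjusted p = 0.712). Rrm1 spread widely, with 7.88, 8.38 and 8.97 (lowest, median and highest) in P0 Iir-/- arrays against 8.13, 8.89, 8.56, 8.61 and 8.64 in E18.5 Iir-/- arrays. Rrm2 itself had 6.51, 6.77 and 7.02 (lowest, median and highest) in P0 Iir-/- arrays, against 7.34, 7.98, 7.47, 7.43 and 7.30 in E18.5 Iir-/- arrays, and the groups were separate. Thymidine kinase, Tk1, which salvages thymidine, had 7.21, 7.61 and 8.23 (lowest, median and highest) in P0 Iir-/- arrays, against 7.59, 8.44, 8.37, 8.26 and 8.34 in E18.5 Iir-/- arrays. Replicate 1 at E18.5 lay among the P0 arrays, and Tk1 fell by 0.54, while the dUTPase Dut fell by 0.26.

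Among the genes of chromatin copying and S phase entry 5 of 7 fell. Ccne1, a cyclin that drives S phase entry, had 5.33, 5.47 and 5.99 (lowest, median and highest) in P0 Iir-/- arrays, against 5.94, 6.38, 6.24, 5.93 and 6.16 in E18.5 Iir-/- arrays. The highest P0 array reached the lower E18.5 arrays, and Ccne1 fell by 0.56 (SE 0.14, adjusted p = 0.00662). The related cyclin gene Ccne2 had 6.99, 7.34 and 7.57 in P0 Iir-/- arrays, against 7.48, 7.90, 7.72, 7.90 and 7.44 in E18.5 Iir-/- arrays, and fell by 0.37 with overlap. Uhrf1, which guides maintenance DNA methylation to new DNA, had 5.63, 5.73 and 5.96 in P0 Iir-/- arrays, against 5.85, 6.31, 6.13, 6.32 and 6.29 in E18.5 Iir-/- arrays. Replicate 1 at E18.5 lay below the highest P0 array, and Uhrf1 fell by 0.42 (SE 0.09, adjusted p = 0.00206). The transcription factor gene E2f1 had 4.67, 4.79 and 4.97 in P0 Iir-/- arrays, against 5.13, 5.26, 5.14, 5.11 and 5.14 in E18.5 Iir-/- arrays, and fell by 0.34 without overlap, although it was dim in all groups. Slbp, whose product binds histone mRNA, had 7.01, 7.12 and 7.23 in P0 Iir-/- arrays, against 7.28, 7.44, 7.34, 7.62 and 7.41 in E18.5 Iir-/- arrays, and fell by 0.29 without overlap. The large and middle subunits of the chromatin assembly factor, Chaf1a and Chaf1b, had -0.25 ± 0.11 and 0.11 ± 0.10 and did not pass.

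**Figure D2:**
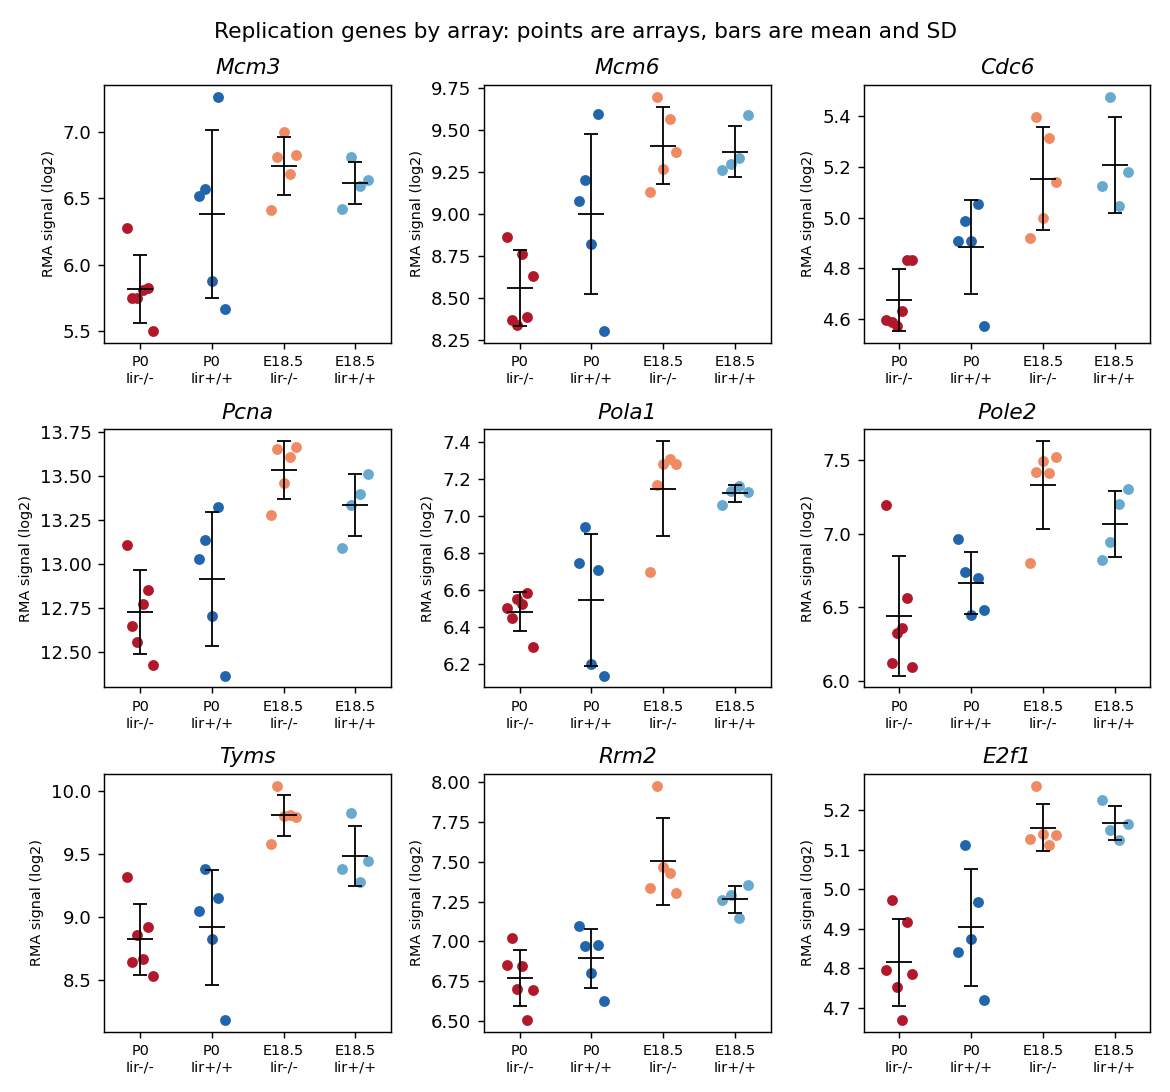
Log2 signal of 9 replication genes in P0 Iir-/-, P0 Iir+/+, E18.5 Iir-/- and E18.5 Iir+/+ pancreas; each point is an array and the bars give the mean and SD, and each panel has its own axis. The P0 Iir-/- arrays lie below the E18.5 Iir-/- arrays in all panels but Pole2, and the P0 Iir+/+ arrays of Mcm3 spread from 5.67 to 7.27.

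Across the set, 16 of 38 genes had every P0 Iir-/- array below every E18.5 Iir-/- array, against 6.55% of all genes tested. Leaving out the 4 marker-rich arrays gave 16 genes that fell, and so did leaving out E18.5 Iir-/- replicate 2 alone, the array with the highest intestinal marker mean (8.41) and high replication signals. Over all genes tested, 1748 and 3292 were called in these settings, where 2112 fell and 2027 rose in the main fit. With the running sample number as a covariate, 7 of the 38 genes fell, and 1939 of all genes tested were called. Markers of other cells moved with age in the same arrays. The duct marker mean (5 of 7 markers with a probe set of their own) was 7.96 to 8.46 in P0 Iir-/- arrays and 8.66 to 9.06 in E18.5 Iir-/- arrays, although Muc1 was the only one of 4 tested duct markers that passed. With the duct marker mean as a covariate, a setting chosen after seeing the data, 0 of the 38 genes passed and the median difference was -0.18. In that setting 443 of all 17993 genes tested were called. The duct marker means of the Iir-/- arrays did not overlap between the ages, so duct marker level and age can hardly be told apart here. Intestinal markers, of which 2 of 6 tested fell, averaged 5.38 to 6.38 in P0 Iir-/- arrays and 5.64 to 8.41 in E18.5 Iir-/- arrays. With that mean as a covariate 9 replication genes were called, and 1832 of all genes tested. The acinar marker mean was 14.59 to 15.26 in P0 Iir-/- arrays and 15.67 to 15.97 in E18.5 Iir-/- arrays. Of 9 tested markers, 3 were lower. Cpa1, Ctrb1 and Cel stood at the highest value of the data on every array, so a change in them may go unseen. The mean moved mainly with Ptf1a, Rbpjl and Bhlha15. These had 7.40 to 11.33, 9.81 to 10.64 and 5.70 to 7.31 in P0 Iir-/- arrays. In E18.5 Iir-/- arrays they had 11.43 to 12.93, 12.59 to 13.15 and 7.75 to 9.0. The part of the acinar marker mean in the result was not tested. The mesenchyme marker mean ran the other way, at 11.01 to 11.77 in P0 Iir-/- arrays and 10.48 to 11.05 in E18.5 Iir-/- arrays, with 3 markers that rose, and the median of the replication genes was -0.59 with it as a covariate.

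In Iir+/+ pancreas the same comparison called 4 of 38 replication genes, all lower at P0, where 4.1% of all genes tested fell and 4.76% rose. The 4 genes were Pola1 (-0.57 ± 0.15, adjusted p = 0.0228), Pold1 (-0.27 ± 0.06, adjusted p = 0.0152), Chaf1a (-0.43 ± 0.12, adjusted p = 0.0372) and E2f1 (-0.26 ± 0.07, adjusted p = 0.0321). The median over the 38 genes was -0.27, against 0.01 (0.00555) over all genes, and 34 genes lay below 0. Pola1, the polymerase that starts each strand with primase, had 6.74, 6.94, 6.20, 6.71 and 6.14 in P0 Iir+/+ arrays, against 7.06, 7.13, 7.16 and 7.13 in E18.5 Iir+/+ arrays. The P0 arrays were widely spread and yet all below the narrow E18.5 group. Chaf1a, the large subunit of the chromatin assembly factor, had 6.05, 6.15, 5.92, 6.21 and 5.72 in P0 Iir+/+ arrays, against 6.79, 6.49, 6.13 and 6.34 in E18.5 Iir+/+ arrays. Here replicate 1 at E18.5 stood highest and replicate 3 lay within the P0 range. E2f1 had 4.84, 5.11, 4.88, 4.97 and 4.72 in P0 Iir+/+ arrays, against 5.23, 5.15, 5.12 and 5.17 in E18.5 Iir+/+ arrays, with the highest P0 array just below the lowest E18.5 array. In 5 genes (Pola1, Pold1, Rrm2, Uhrf1 and E2f1) every P0 Iir+/+ array lay below every E18.5 Iir+/+ array, against 5.36% of all genes tested.

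Most of the genes with large falls in Iir-/- pancreas had smaller differences in Iir+/+ pancreas and did not pass there. For Mcm3, Mcm6, Tyms and Pcna the P0 arrays were more widely spread in Iir+/+ than in Iir-/- pancreas. The fit pools the spread of all 4 groups for each gene, so this spread enters the tests of both genotypes. Mcm3 had 6.52, 6.57, 5.88, 7.27 and 5.67 in P0 Iir+/+ arrays, against 6.42, 6.81, 6.59 and 6.64 in E18.5 Iir+/+ arrays. Replicates 3 and 5 lay below all E18.5 Iir+/+ arrays and replicate 4 above them all, and the difference was -0.23 ± 0.24 (adjusted p = 0.596). Tyms had 9.05, 9.38, 8.83, 9.15 and 8.18 in P0 Iir+/+ arrays, against 9.38, 9.82, 9.28 and 9.44 in E18.5 Iir+/+ arrays, at -0.56 ± 0.20 (adjusted p = 0.0831). Rrm2, the small subunit of ribonucleotide reductase, had 7.10, 6.97, 6.80, 6.98 and 6.62 in P0 Iir+/+ arrays, against 7.26, 7.29, 7.15 and 7.36 in E18.5 Iir+/+ arrays, without overlap and at -0.37 ± 0.13 (adjusted p = 0.0805). The clamp gene Pcna had 13.03, 13.14, 12.70, 13.33 and 12.37 in P0 Iir+/+ arrays, against 13.09, 13.34, 13.40 and 13.52 in E18.5 Iir+/+ arrays, and replicates 1, 3 and 5 lay below all E18.5 arrays (-0.42 ± 0.17, adjusted p = 0.124). In this comparison 4 genes lay above 0, led by the origin recognition subunit Orc6, with 9.76, 9.39, 9.54, 9.73 and 9.25 in P0 Iir+/+ arrays against 8.82, 9.11, 9.19 and 9.49 in E18.5 Iir+/+ arrays (0.38 ± 0.22, adjusted p = 0.297). The count of 4 was 2 without the marker-rich arrays, 1 in each case without E18.5 Iir+/+ replicate 1 or 3 or P0 Iir+/+ replicate 3 or 5, and 0 without E18.5 Iir+/+ replicate 2. Over all genes tested, 1571 were called without the marker-rich arrays and 670 to 1153 in the other settings. In the main fit 738 fell and 856 rose.

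A different number of calls in the 2 genotypes is not a test of a difference between them. The test of that difference, the genotype effect at P0 minus that at E18.5, called 0 of 38 replication genes and 0% of all genes tested in limma. At an unadjusted p under 0.05 it held 1 replication gene, Mcm3 (-0.70 ± 0.32, adjusted p = 0.705), and 507 genes in the positive and 749 in the negative direction overall. The median of the 38 genes was -0.14, against -0.01 (-0.0135) for all genes. It was -0.23 without P0 Iir+/+ replicate 5, -0.10 without P0 Iir+/+ replicate 4 and -0.24 without the marker-rich arrays. With the duct marker mean as a covariate the median of the replication genes was 0.03, and 17 genes lay below 0 against 34 without it.

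At P0 itself, most replication genes had values below 0 for Iir-/- minus Iir+/+ pancreas, but 0 of 38 passed in limma, where 0.0111% of all genes tested did. The median difference was -0.13, against 0.01 (0.00537) for all genes, and 32 of 38 genes lay below 0. The median was -0.08 without control replicate 1, -0.07 without control replicate 4 and -0.20 without control replicate 5. With the duct marker mean as a covariate it was -0.04 and 22 genes lay below 0; that mean was 7.96 to 8.46 in P0 Iir-/- arrays and 8.16 to 8.79 in P0 Iir+/+ arrays. At an unadjusted p under 0.05, 6 genes were lower in Iir-/- pancreas, namely Mcm3, Mcm6, Mcm4, Rpa2, Uhrf1 and Ccne1, where 3.72% of all genes tested were lower by that measure. The helicase group had the lowest median at -0.21, the nucleotide synthesis group had -0.12, the chromatin and S phase entry group -0.09 and the polymerase group -0.08.

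**Figure D3:**
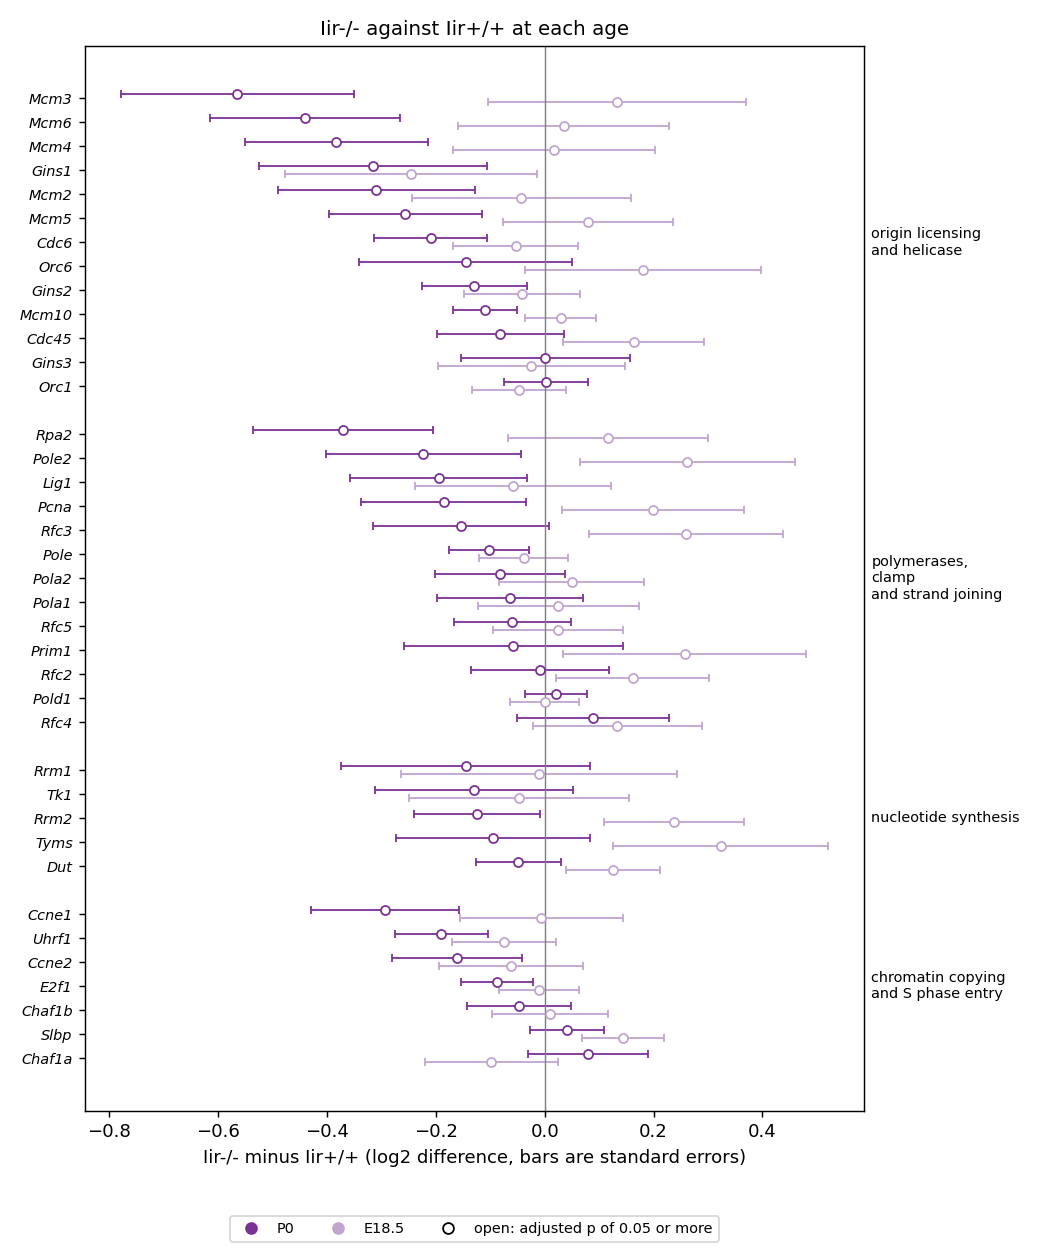
Log2 difference between Iir-/- and Iir+/+ pancreas for the 38 replication genes at P0 (dark) and E18.5 (light), ordered within each role, with standard errors from limma; open points did not pass an adjusted p of 0.05. All points are open, and the P0 points of Mcm3, Mcm6, Mcm4 and Rpa2 are the lowest.

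Mcm3 showed the largest difference at P0. Its lowest, median and highest signals in P0 Iir-/- arrays, 5.50, 5.78 and 6.28, stood against 6.52, 6.57, 5.88, 7.27 and 5.67 in P0 Iir+/+ arrays, so replicates 3 and 5 of the controls lay within the Iir-/- range. The difference was -0.56 ± 0.21 (adjusted p = 0.514), with all 6 Iir-/- arrays below the control mean, and it was -0.34 without control replicate 4 and -0.74 without control replicate 5. Mcm6 had 8.34, 8.51 and 8.86 (lowest, median and highest) in P0 Iir-/- arrays, against 9.08, 9.20, 8.82, 9.59 and 8.30 in P0 Iir+/+ arrays, at -0.44 ± 0.17 (adjusted p = 0.53). Control replicate 5 lay below every Iir-/- array, and the difference was -0.29 without control replicate 4. Rpa2, a subunit of the protein that coats single-stranded DNA, had 5.25, 5.47 and 5.79 (lowest, median and highest) in P0 Iir-/- arrays, against 5.70, 5.59, 5.87, 6.71 and 5.42 in P0 Iir+/+ arrays. Control replicate 4 stood far above the rest, and the difference of -0.37 ± 0.17 (adjusted p = 0.568) was -0.16 without it. Of the other genes of the ring, Mcm2 had 5.29, 5.40 and 5.77 (lowest, median and highest) in P0 Iir-/- arrays, against 5.78, 6.37, 5.46, 6.14 and 5.14 in P0 Iir+/+ arrays, at -0.31 ± 0.18 (-0.47 without control replicate 5). Control replicates 3 and 5 again lay at or below the level of the Iir-/- arrays. The GINS subunit Gins1 had 6.13, 6.56 and 7.0 in P0 Iir-/- arrays, against 6.78, 6.94, 6.29, 7.71 and 6.59 in P0 Iir+/+ arrays, and its difference of -0.31 ± 0.21 was -0.10 without control replicate 4.

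Outside the helicase, Ccne1 had 5.33, 5.47 and 5.99 (lowest, median and highest) in P0 Iir-/- arrays, against 5.96, 6.10, 5.74, 6.13 and 5.39 in P0 Iir+/+ arrays, at -0.29 ± 0.14 (adjusted p = 0.569). Uhrf1 had 5.63, 5.73 and 5.96 in P0 Iir-/- arrays, against 6.01, 6.08, 5.83, 5.99 and 5.84 in P0 Iir+/+ arrays, at -0.19 ± 0.09 (adjusted p = 0.568). In both genes most controls lay in the upper part of the Iir-/- range or above it. Rrm1 had 7.88, 8.38 and 8.97 in P0 Iir-/- arrays, against 9.08, 8.72, 8.63, 8.82 and 7.60 in P0 Iir+/+ arrays, with control replicate 5 below all others (-0.15 ± 0.23, adjusted p = 0.891). Tyms had 8.53, 8.76 and 9.32 in P0 Iir-/- arrays, against 9.05, 9.38, 8.83, 9.15 and 8.18 in P0 Iir+/+ arrays (-0.09 ± 0.18, adjusted p = 0.914), and Pcna had 12.43, 12.71 and 13.11 in P0 Iir-/- arrays, against 13.03, 13.14, 12.70, 13.33 and 12.37 in P0 Iir+/+ arrays (-0.19 ± 0.15, adjusted p = 0.745). The P0 Iir-/- and P0 Iir+/+ arrays were separate in 0 of the 38 replication genes, against 0.511% of all genes tested. All 9 liver markers tested lay above 0 for Iir-/- minus Iir+/+ at P0, with a median difference of 1.70, and limma called 0 of them.

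At E18.5, before birth, limma called 0 of 38 replication genes, where 0.0111% of all genes tested passed, and 0 replication genes had an unadjusted p under 0.05, against 702 genes higher and 278 lower overall. The median difference was 0.02, the same as for all genes to 2 decimals (0.0246 and 0.0205), and 16 of 38 genes lay below 0. Single arrays moved this median: it was 0.10 without Iir-/- replicate 1, the muscle-rich array, where 7 genes lay below 0, and -0.00275 without Iir-/- replicate 5. Without Iir-/- replicate 2 or without control replicates 1, 2 or 4 it lay between 0.000125 and 0.05. The largest differences were 0.32 ± 0.20 for Tyms, 0.26 ± 0.20 for Pole2 and 0.26 ± 0.18 for the clamp loader subunit Rfc3. Rfc3 had 6.42, 6.74, 6.52, 6.43 and 6.53 in E18.5 Iir-/- arrays, against 6.24, 6.22, 6.22 and 6.37 in E18.5 Iir+/+ arrays, so the genotypes did not overlap; this held for 1 of the 38 genes, against 2.45% of all genes tested, a share near that background. Tyms had 9.58, 10.04, 9.80, 9.81 and 9.79 in E18.5 Iir-/- arrays, against 9.38, 9.82, 9.28 and 9.44 in E18.5 Iir+/+ arrays, and Gins1, the lowest at -0.25, had 6.63, 6.94, 6.81, 6.75 and 7.07 in E18.5 Iir-/- arrays, against 6.84, 6.72, 7.20 and 7.59 in E18.5 Iir+/+ arrays. In Gins1 the highest control, replicate 4, was a marker-rich array. Averaged over both ages, limma called 0 of 38 replication genes, where 0.0167% of all genes passed, and 0 had an unadjusted p under 0.05, with a median of -0.02 that ran from -0.06 to -0.01 when each array was left out.

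The P0 arrays differed from each other across many of these genes at once. In P0 Iir-/- arrays 1 to 6 the number of replication genes below all 9 E18.5 arrays was 15, 30, 24, 23, 23 and 32 of 38. In P0 Iir+/+ arrays 1 to 5 it was 13, 8, 27, 5 and 34. Control replicates 3 and 5 thus resembled the Iir-/- arrays in this count, while control replicates 2 and 4 had the fewest such genes. Over all genes tested the share below every E18.5 array was 15.8% to 25.0% in the 11 P0 arrays. The liver marker mean, in the same order, was 10.92, 13.09, 11.24, 11.19, 9.64 and 13.64 in P0 Iir-/- arrays. In P0 Iir+/+ arrays it was 8.79, 10.31, 11.86, 11.88 and 7.59, and its relation to the count was not tested. With the liver marker mean as a covariate 0 replication genes were called between the genotypes at P0, the same as without it. Over all genes tested 38 were called with it and 2 without it.

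**Figure D4:**
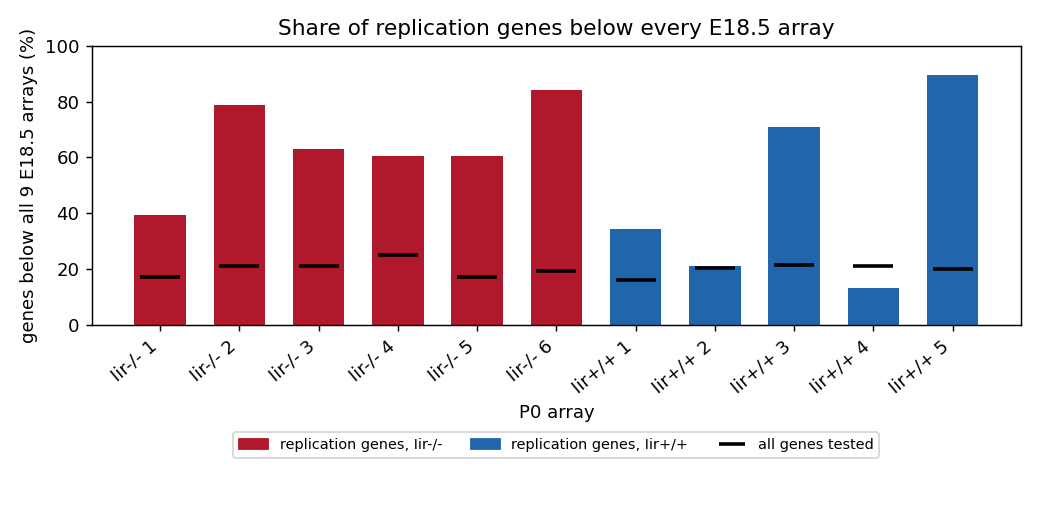
Percentage of the 38 replication genes whose signal on a P0 array lay below all 9 E18.5 arrays, for Iir-/- (red bars) and Iir+/+ (blue bars) pancreas; black marks give the same percentage over all 17993 genes tested. The bars of the Iir-/- arrays reach 39.5% to 84.2% and those of the Iir+/+ arrays 13.2% to 89.5%.

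Around their group means, pooled over all groups, the replication genes varied together. After the group mean was taken off, the mean correlation between pairs of the 38 genes over 20 arrays was 0.452, against 0.011 for all genes tested. It was 0.473 in the helicase group, 0.494 in the polymerase group, 0.445 in nucleotide synthesis and 0.288 in chromatin copying and S phase entry. Pcna followed the mean of the other members most closely (0.937), then Mcm5 (0.906) and Mcm3 (0.897), and Orc1 (0.33), E2f1 (0.342) and Chaf1a (0.348) followed it least. These are descriptions over arrays that share one normalisation, and E2f1 was dim. The SD of the array mean over the 38 genes was 0.249 in P0 Iir+/+ pancreas. In P0 Iir-/-, E18.5 Iir-/- and E18.5 Iir+/+ pancreas it was 0.121, 0.138 and 0.103. The P0 Iir+/+ arrays therefore weigh most in these correlations, which were not computed group by group. The helicase mean by array was 6.57, 6.14, 6.25, 6.28, 6.34 and 6.22 in P0 Iir-/- pancreas, 6.59, 6.65, 6.33, 6.89 and 6.17 in P0 Iir+/+ pancreas, 6.50, 6.87, 6.72, 6.79 and 6.80 in E18.5 Iir-/- pancreas and 6.56, 6.77, 6.69 and 6.86 in E18.5 Iir+/+ pancreas. Control replicate 4 at P0 was thus as high as the highest E18.5 arrays, and control replicate 5 as low as the lowest Iir-/- arrays.

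**Figure D5:**
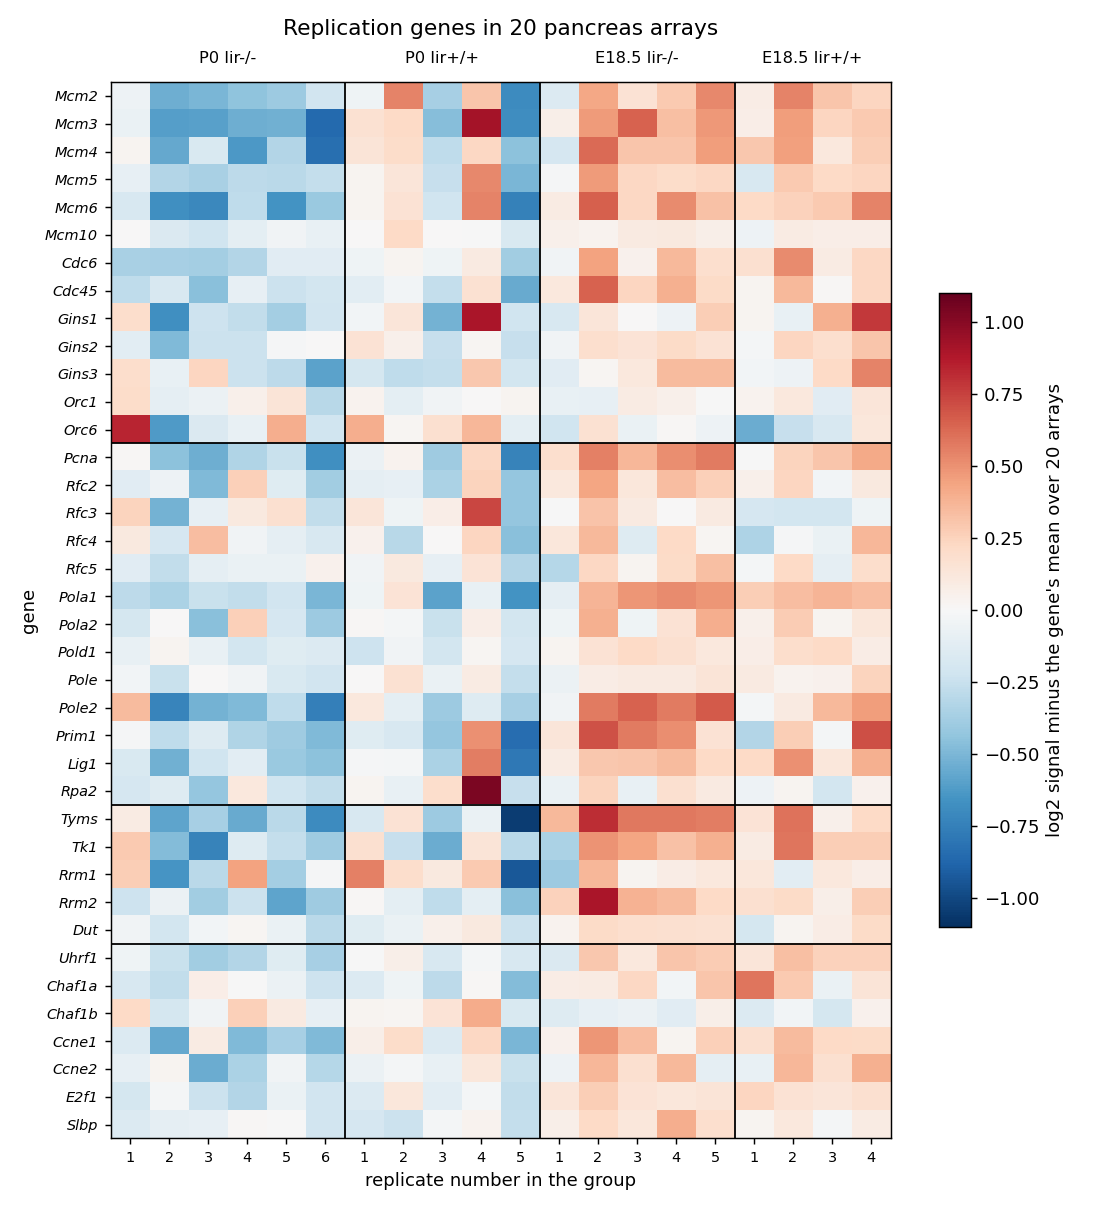
Log2 signal of each of the 38 replication genes minus its mean over the 20 arrays, with arrays in columns by group and genes in rows by role (helicase, polymerases, nucleotide synthesis, chromatin and S phase entry from top to bottom). Most genes are below their mean (blue) in the P0 Iir-/- arrays and in P0 Iir+/+ arrays 3 and 5, and above it (red) in most E18.5 arrays.

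Other genes of the same pathway gave a mixed picture. Of 39 further replication genes tested, 13 fell and 2 rose in P0 Iir-/- pancreas relative to E18.5 Iir-/- pancreas, where 11.7% of all genes tested fell and 11.3% rose. In the Iir+/+ comparison 2 of the 39 fell and 2 rose, which is near the 4.1% and 4.76% of all genes tested. The polymerase delta subunit Pold2 fell in both genotypes (-0.999 ± 0.107 in Iir-/-, adjusted p = 1.67e-05, and -0.829 ± 0.119 in Iir+/+, adjusted p = 0.000739). Thymidylate kinase, Dtymk, fell by 0.94, the histone chaperone Nasp by 0.75 and the chromatin remodeller Hells by 0.72 in Iir-/- pancreas, and the bromodomain ATPase Atad2 fell in both genotypes, by 0.71 in Iir-/- and 0.76 in Iir+/+ pancreas. The origin recognition subunits Orc2 and Orc3 were the genes that rose, by 0.46 and 0.33 in Iir-/- pancreas and by 0.53 and 0.56 in Iir+/+ pancreas. Between genotypes limma called 0 of the 39, and at P0 the smallest p belonged to the polymerase alpha adaptor Wdhd1 (-0.49 ± 0.15, adjusted p = 0.395). At an unadjusted p under 0.05, 2 of the 39 were lower and 0 higher at P0, where 669 of 17993 genes tested were lower and 907 higher.

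Genes of G2 and mitosis, called mitotic genes here, lay mostly above 0 between the genotypes. Of 28 mitotic genes tested, 27 lay above 0 at P0 and 27 at E18.5, with medians of 0.21 and 0.18, but limma called 0 at either age. At an unadjusted limma p under 0.05, 8 were higher at P0 and 1 at E18.5. By that measure 907 and 702 of 17993 genes tested were higher. The mitotic mean was 7.66 to 8.04 in P0 Iir-/- arrays, against 7.77, 7.60, 7.65, 7.76 and 7.06 in P0 Iir+/+ arrays. Control replicate 5 thus stood lowest, and the mitotic difference without it was not examined. Ube2c, the ubiquitin carrier of the anaphase-promoting complex, had 10.99, 11.23 and 11.54 (lowest, median and highest) in P0 Iir-/- arrays, against 10.99, 10.88, 10.80, 10.68 and 10.06 in P0 Iir+/+ arrays. The groups nearly separated, at 0.57 ± 0.15 (adjusted p = 0.231). With age, 3 of the 28 mitotic genes fell in each genotype, the same 3 (Ube2c, Bub1 and Top2a), where 11.7% of all genes tested fell in Iir-/- and 4.1% in Iir+/+ pancreas; the share in Iir-/- pancreas was near that background. Ube2c fell by 0.71 in Iir-/- and 0.88 in Iir+/+ pancreas, Top2a by 0.68 and 0.79, and the checkpoint kinase gene Bub1 by 0.58 and 0.55. The mitotic genes varied together around their group means still more than the replication genes, with a mean pairwise correlation of 0.641 pooled over all groups.

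Of 17 genes that control the G1 phase, 4 fell and 1 rose in P0 Iir-/- pancreas and 1 rose in P0 Iir+/+ pancreas, each relative to E18.5 and read against the same shares of all genes (11.7% lower and 11.3% higher in Iir-/-, 4.1% lower and 4.76% higher in Iir+/+). The share that rose was below that of all genes in Iir-/- pancreas and near it in Iir+/+ pancreas. Cyclin D2, Ccnd2, fell by 1.82 in Iir-/- pancreas (SE 0.32, adjusted p = 0.000711), Cdk4 by 0.64 and the activating E2F gene E2f3 by 0.44, and the repressive E2f4 fell by 0.33. Rbl2, a pocket protein of the retinoblastoma family that holds cells out of the cycle, rose in both genotypes, by 1.15 ± 0.19 in Iir-/- pancreas and 1.05 ± 0.21 in Iir+/+ pancreas. Between genotypes limma called 0 of the 17 at either age, and at P0 Ccnd2 had -0.79 ± 0.32 (adjusted p = 0.538), the only one at an unadjusted p under 0.05. By that measure 3.72% of all genes tested were lower at P0, so 1 of 17 is near that background. Ccnd2 had 10.74 to 12.44 in P0 Iir-/- arrays, against 12.76, 13.12, 11.52, 13.17 and 11.62 in P0 Iir+/+ arrays. Control replicates 3 and 5 thus lay within the Iir-/- range.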

How the data were processed

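The deposited values are log2 signals of 65956 probe sets on 20 arrays, made by the authors with RMA in Affymetrix Expression Console 1.4.1.46, per the submitters' processing notes. Per the labels, RNA came from an RNeasy lipid tissue kit and was amplified (Ovation PicoSL) and biotin-labelled (Encore). The array's genome build is not given in the sources used here. RMA forces the arrays to one distribution, so a change shared by most genes would not be seen, and the number of arrays limits the precision.

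Of the probe sets, 30604 named 1 gene, 2146 several and 33206 none; symbols were updated to RefSeq GRCm38.p6. One limma 3.58.1 model (R 4.3.3) held the 4 group means, leaving 16 residual degrees of freedom (17.9 after moderation), and tests were two-sided, with Benjamini-Hochberg adjustment over all 17993 genes in each contrast; the code was tested on simulated data. Values are log2 differences ± SE. Members and gene lists were chosen with earlier results of these data known, and so support nothing independently. Array values are given, per role, for the genes with the largest genotype differences (2 at P0, 1 at E18.5), the largest age difference in each genotype, and Mcm2, Mcm3, Mcm6, Cdc6, Pcna, Pola1, Rrm2, Tyms, Ccne1, Ccne2, E2f1 and Uhrf1; of other lists, up to 4 called genes per contrast are named, or those with the smallest p. Genes named for where they stood apart (such as Rfc3) or to complete a small count were chosen after their values were seen. Correlations of deviations between arrays with the same replicate number ran from -0.305 to 0.245, with 7 of 18 above 0.1, so numbers were not treated as pairs. Alternatives covered the signal filter, normalisation, eBayes options, array weights, a replicate block, running number, probe set means, marker means as covariates, a looser threshold and leaving out arrays. For uncalled values a change of sign was not counted as a reversal. Tables and figures used Python 3.11.15, pandas 2.3.3, numpy 2.4.6 and matplotlib 3.10.9.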

Additional observations from a re-analysis of the deposited data

Results flagged for a closer look

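Groups of 4 to 6 arrays were examined for the named replication genes and for the array means of the 4 roles, 96 in all. Of these, 5 held an array far from the others of its group by Dixon's criterion. Chance flags about 1 in 20 groups, so a count of 5 is near the chance rate. All 5 were in the E18.5 Iir-/- group. Replicate 1 was the lowest for Pola1 (6.698, with the next array at 7.166), Pole2 (6.802, next 7.414) and Tk1 (7.593, next 8.26). Replicate 2 was the highest for Rrm2 (7.979, next 7.466) and E2f1 (5.262, next 5.14). Replicate 1 had a skeletal muscle marker mean of 7.79 and replicate 2 an intestinal marker mean of 8.41, and the part of these markers in the values was not tested gene by gene.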

How the results depend on the processing

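Between genotypes, 0 of the replication genes were called at either age, averaged or in the difference between the ages under any alternative run. The median at P0 ran from -0.20 (without P0 Iir+/+ replicate 5) to -0.07 (without replicate 4) when each array was left out, and was -0.04 with the duct covariate. At E18.5 the genes below 0 numbered 27 with the duct and 4 with the mesenchyme covariate, against 16 without either. The median of the difference between the ages was 0.03 (0.0308) with the duct covariate. Over all genes tested, P0 calls between genotypes numbered 45 without P0 Iir-/- replicate 1, 40 without P0 Iir+/+ replicate 1, 11 without P0 Iir+/+ replicate 3 and 38 with the liver covariate. The difference between the ages had 34 calls without P0 Iir+/+ replicate 1. In all of these settings the replication genes called numbered 0.

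The 25 genes lower with age in Iir-/- pancreas became 7 with the running sample number as a covariate, 9 with the intestinal covariate, 16 without the marker-rich arrays and 0 with the duct covariate, and 16 to 26 when each array was left out. Over all 17993 genes tested, 2112 fell and 2027 rose in the main fit. Calls in either direction numbered 1939 with the running number, 1832 with the intestinal covariate, 1748 without the marker-rich arrays and 443 with the duct covariate. Running number and age are nearly the same variable here, since all P0 arrays have lower numbers than all E18.5 arrays. That setting therefore leaves little of the age contrast. The median of -0.35 became -0.18 with the duct and -0.59 with the mesenchyme covariate. The duct and mesenchyme covariates were chosen after seeing the data.

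The count of 4 genes lower with age in Iir+/+ pancreas became 8 at an adjusted p under 0.10, 2 each with array centring, the running number, the liver covariate and without the marker-rich arrays, 1 with only the arrays compared, 1 with the replicate block, and 0 to 6 when each array was left out. With the running number and with only the arrays compared, 0 of the original 4 were among the genes called. Over all genes tested, 738 fell and 856 rose in the main fit. Calls numbered 1436 with array centring, 1092 with the running number and 1326 with the liver covariate. They numbered 1571 without the marker-rich arrays, 1008 with only the arrays compared and 1126 with the replicate block. The block kept 22 of the 25 calls in Iir-/- pancreas, and the replicate numbers do not pair the samples. For single named genes, 4406 alternative values stayed on their side of the threshold, of which 150, all uncalled, changed sign, while 97 lost and 17 gained a call with their sign kept. The cause was not tested.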
